A study of Mus musculus with 4 samples.

Results

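The genes described here are 10 RNA-binding regulators of splicing that are best known from neurons, namely Rbfox2, Nova1, Nova2, Elavl2, Elavl3, Elavl4, Celf3, Celf5, Celf6 and Srrm4. They were taken by gene symbol from a list of names, and no measured value entered that rule. The list itself was drawn up with earlier results of these data known. The 10 are among the 17278 genes with exon reads in the tables. All 10 had a level in every library. They were measured by RNA sequencing in N2A cells, a mouse neuroblastoma line, with 1 library for each of 4 groups, so no difference between groups has a replicate check and no test between groups was possible.

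The control library came from cells given a control shRNA, and the others from cells given a short hairpin RNA against Ptbp1, against Ptbp2, or against both. All groups shared lipid transfection for 5 h in suspension, culture for 3 d, poly(A) RNA libraries (TruSeq) made strand-specific with dUTP, and paired reads of 100 bases. Cells were collected as whole transfected cultures, so fewer cells responding and a smaller response per cell cannot be told apart. All 3 knockdowns are set against the same control library, so they share its error.

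PTBP1 and its paralogue PTBP2 bind pyrimidine-rich RNA and often repress nearby exons, and neurons lower PTBP1 and use PTBP2 during differentiation. The proteins described here act on many exons of the same kind. RBFOX2 binds UGCAUG, NOVA proteins bind clusters of YCAY, the ELAVL (Hu) proteins bind AU- and U-rich RNA and also steady messages, CELF proteins bind GU-rich RNA, and SRRM4 promotes the inclusion of very short neuronal exons. Several of these genes are themselves spliced in more than 1 way, and so the levels and the exons of each gene are given in turn.

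Exon reads summed to between 187.15 M and 233.19 M per library, and junction reads to between 57.21 M and 73.00 M. Ptbp1 exon reads stood at 0.301 of control with the Ptbp1 hairpin and 0.227 with both hairpins, and Ptbp2 exon reads at 0.265 with the Ptbp2 hairpin, so each knockdown went the way of its label. Ptbp2 was at 2.03 times control with the Ptbp1 hairpin and at 0.436 with both. Of 10 neuronal and sympathoadrenal markers, 8 to 9 reached 1 FPKM per library (their sum was 1116 to 1368 FPKM). The summed markers of astrocytes, oligodendrocytes, myeloid cells, fibroblasts, endothelium and muscle did not pass 2.22 FPKM in any library and group of markers.

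Levels per length are given in FPKM rescaled within each library, with the 95% interval that Cufflinks deposited. Celf3 and Elavl4 were the most abundant of the 10 in every library, between 41.5 and 75.6 FPKM. Elavl2 and Rbfox2 followed at 24.2 to 37.5 FPKM, then Elavl3 at 12.4 to 20.6 FPKM and Nova1 at 5.54 to 17.6 FPKM. Nova2, Celf6, Srrm4 and Celf5 were all below 10 FPKM in every library, and with the Ptbp2 hairpin Nova1 stood below Nova2. In control, no neighbours in this order had overlapping intervals. With the Ptbp1 hairpin, Celf3 and Elavl4 overlapped, as did Nova2 with Celf6 and Srrm4 with Celf5. In the Ptbp2 knockdown the overlapping neighbours were Elavl2 with Rbfox2, Rbfox2 with Elavl3, Nova1 with Celf6, and Srrm4 with Celf5. In the double knockdown they were Elavl4 with Celf3, Elavl2 with Rbfox2, Nova1 with Elavl3 (both at 17.6 FPKM), and Srrm4 with Celf5.

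**Figure D1:**
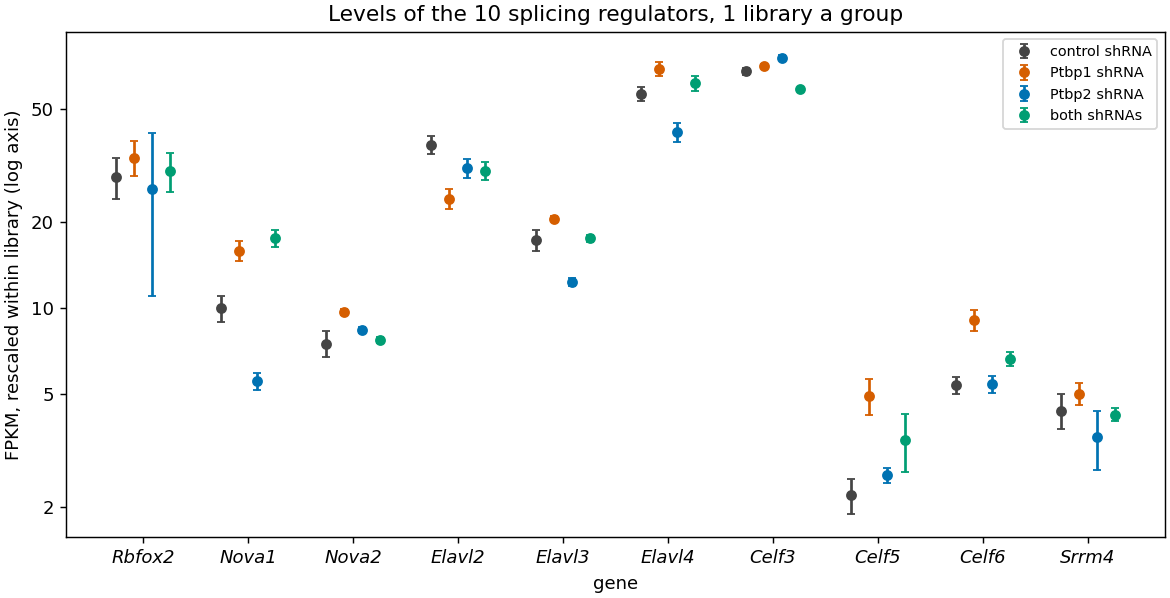
FPKM rescaled within each library (log axis) for the 10 genes in the 4 libraries, 1 point per library, with the 95% intervals deposited by Cufflinks as bars. Celf3 and Elavl4 lie highest and Celf5 lies lowest in control at 2.21 FPKM.

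A gene was called when its exon reads, scaled by the median of ratios, differed at least 2-fold from control on log2(CPM + 0.1) with at least 50 reads in either library. Ratios below carry a 95% counting interval from the reads of both libraries, which covers counting error only. A read that crosses several exons may count in each, so the exons of a gene are not separate observations. With the Ptbp1 hairpin 1 of the 10 genes, Celf5, was called higher and none lower, where 6.10% of all genes tested were called (5.83% higher and 0.272% lower). No member was called in the Ptbp2 knockdown, where 3.19% of genes were called, or in the double knockdown, where 3.73% were. By the second rule, on log2(FPKM + 1) with a difference of at least 1 and intervals apart, none of the 10 was called in any comparison, against 3.25%, 3.56% and 3.35% of genes.

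With the Ptbp1 hairpin 9 of the 10 genes lay above control, and their median log2 difference was 0.30, where the median over all genes tested was 0.018 and 51.95% of them lay above control. The exception was Elavl2. Some markers also differed in that library: the catecholamine enzyme genes Dbh and Th were called higher at 3.88 and 5.49 of control, and Stmn2 stood at 0.684. The summed fibroblast markers went from 0.673 FPKM in control to 1.41 FPKM. Of that sum Pdgfra, which was not called, held 0.569 FPKM in control and 1.10 FPKM with the Ptbp1 hairpin. Col1a1 was called higher at 2.77 of control, on only 66 exon reads in control and 165 with the Ptbp1 hairpin. Dbh and Th were called lower with the Ptbp2 hairpin, at 0.373 and 0.248, and Stmn2 was called lower with both, at 0.432. Among the low markers of other cell types, Pdgfra was called lower with the Ptbp2 hairpin, at 0.454. Des was called higher with the Ptbp2 hairpin and with both, at 2.51 and 2.37. Col1a2 was called higher with both, on 5 exon reads in control and 77 there. The part of these markers in the levels of the 10 genes was not tested. In the Ptbp2 knockdown 4 lay above control with a median of -0.07 (all genes 0.013), and in the double knockdown 6 lay above with a median of 0.04 (all genes 0.0091). At 1.5-fold, Celf5 and Celf6 were called higher with the Ptbp1 hairpin and Elavl4 lower with the Ptbp2 hairpin. Of all genes, 17.8%, 14.0% and 15.3% passed that limit in the 3 comparisons.

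**Figure D2:**
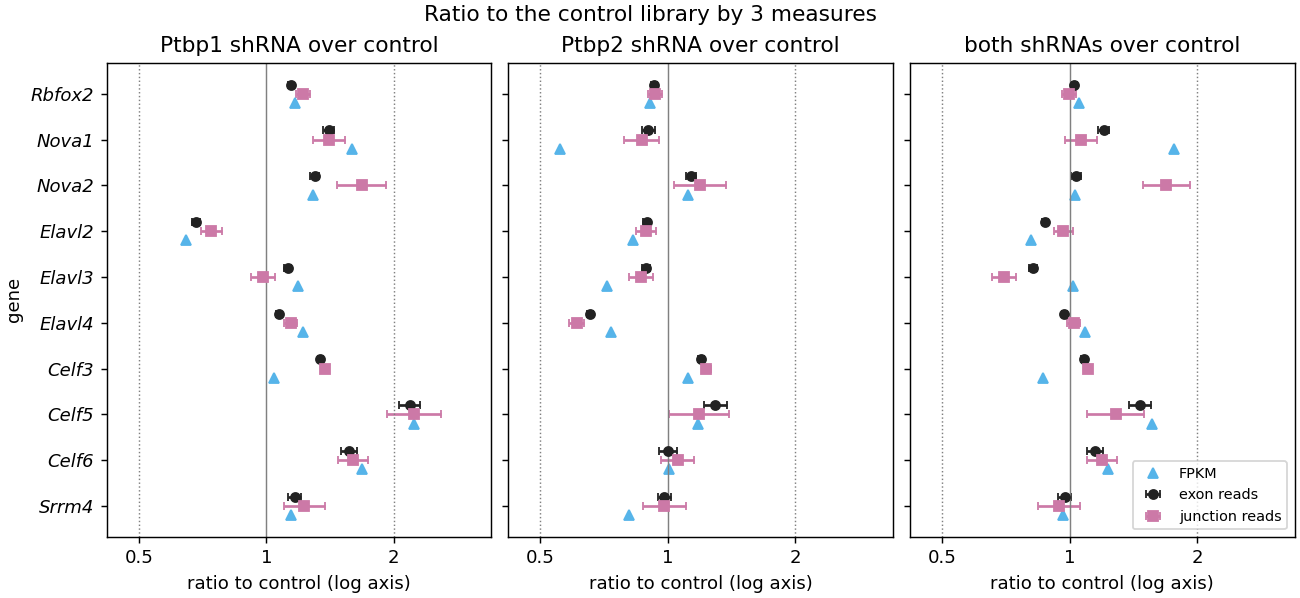
Ratio to the control library (log axis) by exon reads, junction reads and FPKM for each gene, 1 panel per knockdown; bars are 95% counting intervals and dotted lines mark 2-fold. Celf5 with the Ptbp1 hairpin lies past 2-fold by each measure, and Nova2 in the double knockdown and Nova1 in 2 panels differ most between measures.

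The 3 Elavl genes encode the neuronal Hu proteins, which have 3 RNA recognition motifs and a hinge between the second and the third. Elavl2 (HuB, mm9 chr4:90917457-91066675, minus strand) was at 37.5 FPKM in control, 24.2 with the Ptbp1 hairpin, 31.0 with the Ptbp2 hairpin and 30.4 with both. It was lowest with the Ptbp1 hairpin, and that interval overlapped none of the others. Exon reads were at 0.682 of control there (95% interval 0.668 to 0.696), below control in 7 of its 8 exons with enough reads, and at 0.890 and 0.875 in the other 2 knockdowns.

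Elavl4 (HuD, mm9 chr4:109876342-110024529, minus strand) was at 56.6 FPKM in control, 69.2 with the Ptbp1 hairpin, 41.5 with the Ptbp2 hairpin and 61.6 with both. The Ptbp2 knockdown library stood below the other 3. Exon reads there were at 0.654 of control (0.644 to 0.664) and lower in 9 of 9 exons, junction reads were at 0.608, and in the double knockdown exon reads were at 0.972. Elavl3 (HuC, mm9 chr9:21819449-21856467, minus strand) was at 17.3, 20.6, 12.4 and 17.6 FPKM in the same order. Its measures disagreed on the double knockdown, where FPKM was at 1.02 of control, exon reads at 0.820 and junction reads at 0.700. They also disagreed with the Ptbp1 hairpin, where exon reads were at 1.12 of control and junction reads at 0.982. There the terminal exon was at 1.18 and the other exons together at 1.01, with 3 exons above control and 4 below.

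Each of these 3 genes has a 39-base exon in the hinge, which is shown because its use differed between the paralogues while its sequence is close to the same. Sequences are those of GENCODE vM21 transcripts on GRCm38, found by the lengths of the exon and of both neighbouring introns, and capitals mark the 32 of 39 bases that are the same in all 3 genes.
Elavl2: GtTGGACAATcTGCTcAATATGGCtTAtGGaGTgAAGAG
Elavl3: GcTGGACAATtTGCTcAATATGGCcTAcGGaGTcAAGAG
Elavl4: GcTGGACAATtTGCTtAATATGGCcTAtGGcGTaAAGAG
They lie on the minus strand at GRCm38 chr4:91254141-91254179, chr9:22024674-22024712 and chr4:110209740-110209778. Elavl2 and Elavl3 share 34 bases, Elavl2 and Elavl4 33, and Elavl3 and Elavl4 35. The exon is annotated as coding, wholly in all 4 matched transcripts of Elavl2, in the 1 of Elavl3 and in 4 of 5 of Elavl4, and its length keeps the reading frame.

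Inclusion is the share of junction reads that join an exon rather than skip it. The deposited junction counts of short exons are uneven. Over exons of 25 to 49 bases that were never skipped in control, the right junction held 0.395 of the reads of the left one, against 0.999 for exons of 200 to 1000 bases. Why the right junction of short exons holds fewer reads was not tested, and it is not known which junction gives the truer inclusion. For these exons the left junction alone is given first, a choice made after seeing the data. The mean of both junctions is given beside it for the Elavl2 exon and the 51-base exon of Rbfox2. For the other short exons only the left junction is given.

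At the Elavl2 exon (mm9 chr4:90920832-90920870), inclusion reads numbered 138 of 577 in control, 154 of 415 with the Ptbp1 hairpin, 125 of 508 with the Ptbp2 hairpin and 247 of 636 with both, pooled over the 2 downstream splice sites it joins. Inclusion was thus 23.9% in control (95% Wilson interval 20.6% to 27.6%), 37.1% with the Ptbp1 hairpin (32.6% to 41.9%), 24.6% with the Ptbp2 hairpin (21.1% to 28.5%) and 38.8% with both (35.1% to 42.7%). The 2 libraries with the Ptbp1 hairpin were higher than the 2 without it, and the intervals of the 2 pairs did not overlap. The differences from control were 13.2, 0.69 and 14.9 percentage points.

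In Elavl3 the same exon was included in 98.8% to 100% of 160 to 236 reads per library, and in Elavl4 in 96.9% to 98.0% of 621 to 1124 reads. Neither paralogue differed from control by more than 1.25 points. By the mean of both junctions, the Elavl2 exon spliced to the downstream site with more reads stood at 21.4%, 33.1%, 20.8% and 34.9% in the same order of libraries, and spliced to the site 3 bases away at 39.4%, 39.8%, 36.0% and 49.9%, where the Ptbp1 knockdown library lay next to control. The right junction is the same one for both sites, so only the left junction separates them. Across alternative cassette exons of all genes, 7.13% were higher by at least 10 points with the Ptbp1 hairpin and 8.49% with both. Those shares are by the mean of both junctions for each event, not by the pooled left junction.

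**Figure D3:**
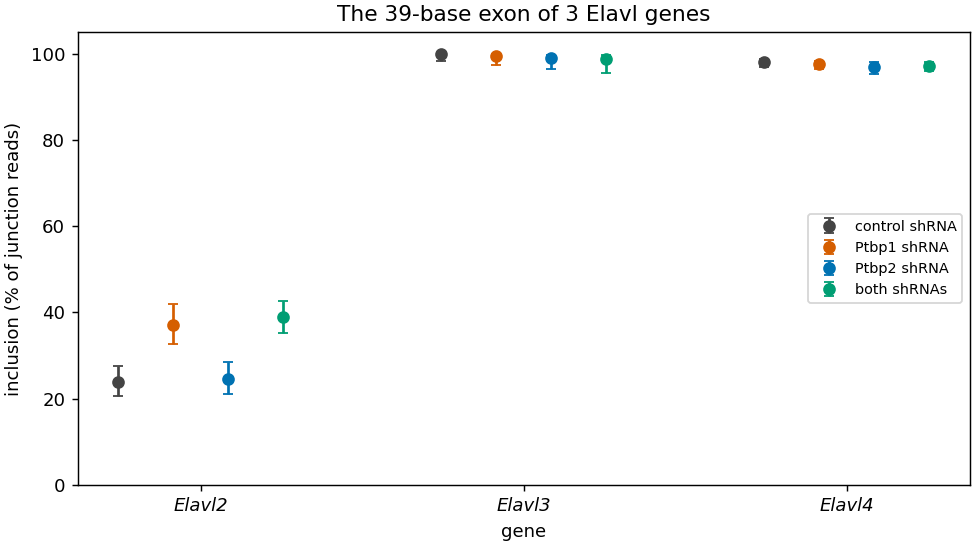
Inclusion of the 39-base hinge exon in Elavl2, Elavl3 and Elavl4 as percent of left-junction reads in the 4 libraries, with 95% Wilson intervals for counting error. Elavl2 lies at 23.9% and 24.6% without the Ptbp1 hairpin and at 37.1% and 38.8% with it, while Elavl3 and Elavl4 lie above 96% in every library.

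Elavl4 also has an alternative 3′ splice site of 42 bases at the exon after the hinge exon, and its longer form took 66.9%, 62.3%, 66.0% and 70.8% of 262 to 496 reads in control, the Ptbp1, the Ptbp2 and the double knockdown. First exons were examined after seeing the data. The 3 first exons of Elavl4 took 13.6% to 15.3%, 75.1% to 78.0% and 7.39% to 8.88% of the reads into their shared acceptor. These shares differed little from library to library although the level of the gene was lowest with the Ptbp2 hairpin. The 2 main first exons of Elavl2 took 38.5% and 51.3% in control, and 50.3% and 42.1% with the Ptbp2 hairpin, where their order was the opposite; the intervals of the first of them overlapped (32.5% to 44.8% and 43.3% to 57.2%).

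Rbfox2 (mm9 chr15:76909420-77137616, minus strand) encodes a splicing regulator with a single RNA recognition motif, and was the only Rbfox gene with reads to speak of. Its level was 28.9 FPKM in control, 33.8 with the Ptbp1 hairpin, 26.2 with the Ptbp2 hairpin and 30.3 with both, all with overlapping intervals. Exon reads were at 1.14, 0.928 and 1.03 of control and junction reads at 1.22, 0.932 and 0.999. Rbfox1 had 0 to 2 exon reads per library and Rbfox3 had 0 to 8.

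Shown are, for the splicing values that follow, the 51-base exon, an optional exon near the start of the coding sequence, and the 40- and 43-base exons, which lie next to each other near the end and are known as the brain-type and the muscle-type exon. None of their bases is set in capitals.
Rbfox2 51-base exon: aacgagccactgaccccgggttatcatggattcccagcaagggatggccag
Rbfox2 40-base exon: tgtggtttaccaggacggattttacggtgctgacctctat
Rbfox2 43-base exon: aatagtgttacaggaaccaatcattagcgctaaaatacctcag
They lie at GRCm38 chr15:77231387-77231437, chr15:77094451-77094490 and chr15:77091812-77091854 on the minus strand, and are coding in every matched transcript. The 51-base exon keeps the reading frame, and the other two do not.

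The 51-base exon (mm9 chr15:77061817-77061867) was included in 72.8% of 191 reads in control (66.1% to 78.6%), 58.6% of 203 with the Ptbp1 hairpin (51.7% to 65.2%), 73.8% of 206 with the Ptbp2 hairpin and 68.3% of 230 with both. The Ptbp1 knockdown library was the lowest, and its interval lay apart from that of control. By the mean of both junctions the values were 64.4%, 50.4%, 64.6% and 57.7%, and there the intervals of control and the Ptbp1 knockdown overlapped. A first exon that lies downstream of this exon, nearer to the shared acceptor, gave 42.6% of the junction reads into that acceptor in control (37.4% to 48.0%), 55.2% with the Ptbp1 hairpin (50.6% to 59.7%), 34.6% with the Ptbp2 hairpin and 43.5% with both. Here again the Ptbp1 knockdown library stood out, as the highest, and the double knockdown lay near control.

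The 40-base exon (mm9 chr15:76924881-76924920) was included in 94.5% of 218 reads in control, 88.7% of 256 with the Ptbp1 hairpin, 96.6% of 208 with the Ptbp2 hairpin and in 230 of 242 reads with both. The Ptbp1 knockdown library was the lowest, and its interval overlapped that of control (84.2% to 92.0% and 90.6% to 96.8%). The 43-base exon was joined by 2 of 23, 11 of 54, 0 of 13 and 3 of 26 reads of its own event, that is 8.70%, 20.4%, 0% and 11.5%. Of these, 0 of 13 allows up to 23.1% if 3 counts are taken as the limit of a count of 0 (22.8% by the Wilson interval), and the intervals of the 43-base exon overlapped in all libraries. Scaled exon reads, set against exon length, stood at 634, 809, 670 and 619 on the 40-base exon in the same order of libraries. On the 43-base exon they stood at 22.9, 58.3, 19.1 and 16.8, so the brain-type exon led in every library. The 2 exons of 93 bases were included in at least 97.1% of left-junction reads in every library.

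**Figure D4:**
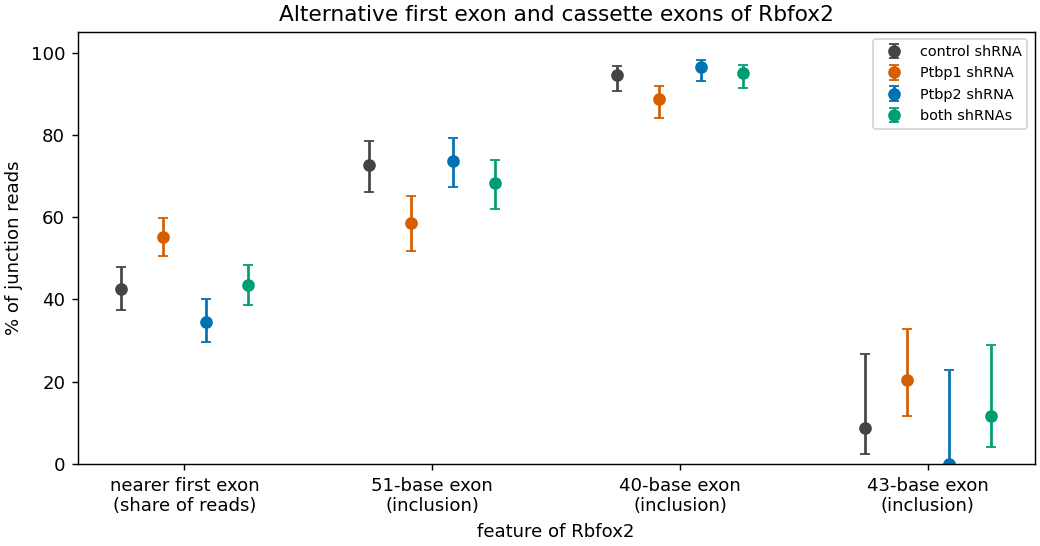
Percent of junction reads for the nearer first exon of Rbfox2 (share of reads into the shared acceptor) and for inclusion of its 51-, 40- and 43-base exons, by left-junction reads, in the 4 libraries with 95% Wilson intervals. The Ptbp1 knockdown library is highest for the first exon at 55.2% and lowest for the 51-base exon at 58.6%. The percentages of the 40- and 43-base exons do not share a denominator and cannot be compared with each other.

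The Nova genes encode KH-domain proteins that regulate synaptic exons. Nova1 (mm9 chr12:47795504-47920140, minus strand) was at 9.98 FPKM in control, 15.9 with the Ptbp1 hairpin, 5.54 with the Ptbp2 hairpin and 17.6 with both, with intervals apart between all pairs but the Ptbp1 and the double knockdown. Exon reads spread less, at 1.40 of control (1.36 to 1.45), 0.899 (0.870 to 0.930) and 1.20 (1.17 to 1.24), and junction reads were at 1.41, 0.867 and 1.06. The assembled transcripts of Nova1 differed between libraries: their FPKM-weighted length was 4062 bases in control, 3946 with the Ptbp1 hairpin, 7444 with the Ptbp2 hairpin and 2914 with both. FPKM divides by that length, and its part in the FPKM differences was not tested. Every cassette exon of Nova1 was included in at least 99.3% of reads, among them a 72-base coding exon.

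Nova2 (mm9 chr7:19511237-19550666, plus strand) was at 7.52, 9.71, 8.38 and 7.72 FPKM in the same order of libraries. Exon reads were at 1.30 of control with the Ptbp1 hairpin (1.27 to 1.33), 1.13 with the Ptbp2 hairpin and 1.03 with both (1.01 to 1.06). Junction reads differed from this in the double knockdown, at 1.68, 1.19 and 1.69 (1.49 to 1.92). Nova2 has 4 exons, and the terminal one, of 7784 bases, held 9757 of its 10526 exon reads in control. The terminal exon was at 1.27, 1.13 and 0.985 of control in the 3 knockdowns, and the other 3 exons together at 1.64, 1.18 and 1.66.

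In the double knockdown each of the 3 upstream exons was thus high and the terminal exon was not. The 144-base exon had 271, 394, 299 and 481 reads in the 4 libraries, and the 167-base exon 440, 641, 495 and 783. The gap between the upstream and the terminal exons was 1.69-fold there, a gap that 30 of 8850 genes with at least 200 reads in both parts reached (0.339%). With the Ptbp1 hairpin the gap was 1.29-fold and was reached by 1.71% of genes. This contrast was chosen after its values were seen. The 2 cassette exons of Nova2 were included in 95.8% to 100% of reads.

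**Figure D5:**
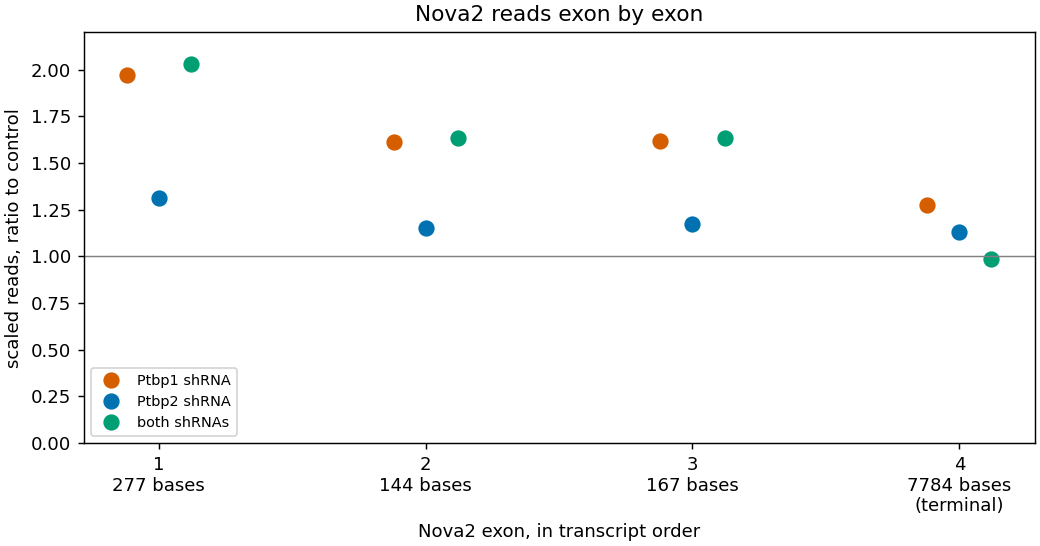
Scaled reads on each of the 4 Nova2 exons as a ratio to the control library, in transcript order, 1 point per knockdown library. In the double knockdown the upstream exons lie well above 1 and the terminal exon lies at 0.985.

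The Celf genes encode CUG-binding proteins, and Celf3, Celf5 and Celf6 belong to a branch of the family found mostly in the nervous system. Celf5 (mm9 chr10:80921973-80945702, minus strand) was at 2.21 FPKM in control (1.90 to 2.52), 4.93 with the Ptbp1 hairpin (4.21 to 5.65), 2.60 with the Ptbp2 hairpin and 3.46 with both. It had 1826, 3592, 2259 and 2909 exon reads. The Ptbp1 knockdown library was the highest, and its FPKM interval touched only that of the double knockdown. Exon reads were at 2.18 of control (2.06 to 2.31), higher in 13 of 13 exons with enough reads, and junction reads were at 2.23. With the Ptbp2 hairpin exon reads were at 1.29 and with both at 1.46.

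The log2(FPKM + 1) difference of Celf5 was 0.89, short of the limit of 1, although the plain FPKM ratio was 2.23. Celf6 (mm9 chr9:59426144-59455099, plus strand) was at 5.38, 9.08, 5.40 and 6.65 FPKM, and its exon reads were at 1.57, 1.00 (0.955 to 1.05) and 1.15 of control. It too was highest with the Ptbp1 hairpin, where 13 of 13 exons lay above control. Celf3 (mm9 chr3:94282753-94296115, plus strand) was at 67.7, 70.6, 75.6 and 58.6 FPKM, with exon reads at 1.34 (1.32 to 1.36), 1.20 and 1.08. All 13 of its exons with enough reads lay above control in each of the 3 knockdowns, while FPKM in the double knockdown lay below control at 0.864.

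Celf6 held 1 exon whose inclusion differed by at least 10 points, a 150-base coding exon (mm9 chr9:59451255-59451404). By the mean of both junctions it was at 90.8% in control, 75.2% with the Ptbp1 hairpin, 79.5% with the Ptbp2 hairpin and 87.3% with both. Its junctions differed: the left one held 6, 23, 15 and 14 reads and the right one 73, 62, 47 and 55, beside 4, 14, 8 and 5 skipping reads. By the left junction alone inclusion was 60.0%, 62.2%, 65.2% and 73.7% on 10 to 37 reads, with no library below control, so the direction rests on the right junction.

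Srrm4 (mm9 chr5:116889282-117043046, minus strand) was at 4.38 FPKM in control, 5.02 with the Ptbp1 hairpin, 3.54 with the Ptbp2 hairpin and 4.23 with both. Exon reads were at 1.17 (1.13 to 1.21), 0.980 (0.945 to 1.02) and 0.975 (0.942 to 1.01) of control, so the latter 2 could not be told from control within counting error. Srrm4 has a very short exon of its own, of 16 bases, which is coding and does not keep the frame.
Srrm4 16-base exon: gaggagtccttgcttg
It lies on the minus strand at GRCm38 chr5:116454673-116454688 (mm9 chr5:116904682-116904697). It was joined by 0 of 7 reads in control, 4 of 12 with the Ptbp1 hairpin, 1 of 21 with the Ptbp2 hairpin and 3 of 9 with both. A count of 0 of 7 allows up to 42.9% by the limit of 3 counts (35.4% by the Wilson interval), and the Wilson intervals of all 4 libraries overlapped. The other cassette exons of Srrm4, including 1 of 27 bases, were included in every informative read of every library.

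Across the 10 genes the tables hold 124 cassette events over 90 middle exons, 107 of them with at least 20 reads in all 4 libraries. Of these, 11 events over 10 exons in 6 genes were alternative, that is between 5% and 95% included in at least 1 library. No member event passed 20 points in any comparison. Of all cassette events tested, 0.348%, 0.175% and 0.555% did in the Ptbp1, the Ptbp2 and the double knockdown. Of alternative cassette exons of all genes, 4.19%, 2.16% and 6.82% did. By the mean of both junctions the largest difference was the 15.6 points of the Celf6 exon, whose left junction gave 60.0% in control and 62.2% with the Ptbp1 hairpin, in the opposite direction and on only 10 reads in control. The exons that passed 10 points were those described above in Elavl2, Rbfox2 (51 bases) and Celf6, beside the 43-base exon of Rbfox2 in the Ptbp1 knockdown, which had fewer than 20 reads in 1 other library. They made up 4 of 109, 1 of 107 and 2 of 109 member events tested in the 3 comparisons. Of all cassette events tested, 1.15%, 0.946% and 1.55% passed 10 points. Among alternative exons of all genes, a narrower set, 13.8%, 11.8% and 18.9% did. The remaining alternative exons, in Rbfox2, Elavl2, Elavl4, Celf3 and Celf5, differed by less than 10 points.

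Other kinds of event were 12 in number in 7 of the genes, and 7 of them were splice sites only 3 bases apart. The longer form at the 3-base site of Celf3 took 68.2%, 68.0%, 68.6% and 69.1% of 569 to 751 reads, and that of Rbfox2 88.0%, 86.0%, 88.4% and 88.4% of 779 to 1026 reads. These well-covered sites stayed within 2 points of control. The 12-base site of Rbfox2 took 46.0%, 45.3%, 40.6% and 45.8%, and the 3-base site of Elavl3 87.1%, 84.7%, 80.0% and 77.5% on 80 to 144 reads. Of 11 events with at least 20 reads in each library only 1 passed 10 points, the 3-base site after the Elavl2 hinge exon, at 33.3%, 27.9%, 41.9% and 16.9% on 36 to 59 reads.

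Of 33 other splicing regulators on a separate list, 22 had enough exon reads. With the Ptbp1 hairpin 1 of them was called higher, Rbm20, and 15 of 22 lay below control with a median log2 difference of -0.22. In the Ptbp2 knockdown Mbnl1 was called lower, at 0.470 of control, and in the double knockdown Rbm20 was called higher at 2.14 of control, from 190 exon reads in control. Mbnl1 stood at 0.502 of control in the double knockdown, just inside 2-fold, and was called lower there by FPKM. The nearest widely expressed relatives of the members were below control with the Ptbp1 hairpin: Elavl1, which encodes HuR, was at 0.673, 0.827 and 0.702 of control in exon reads, and Celf1 at 0.646, 1.01 and 0.948. Srrm3, the closest relative of Srrm4, was at 1.56, 1.13 and 1.26. Celf2 had 0 to 4 reads per library.

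The 3 genes whose scaled exon reads followed those of Celf5 most closely over the 4 libraries, among 10413 genes with at least 200 reads in every library, were Gm14308, Col11a2 and Card10. Their distances in centred log2 units were 0.042, 0.050 and 0.066. With only 4 libraries, such likeness is a description and no more.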

How the data were processed

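The libraries were sequenced by the submitters, whose processing notes name CASAVA, TopHat, Cufflinks and the mm9 build without versions. Gene and transcript levels were deposited as FPKM with 95% intervals from a separate Cufflinks assembly for each library, with a score for each transcript that was not used. The authors deposited SpliceTrap tables, per the file headers, with exon coverage (signal per exon), counts of junction reads and an inclusion ratio as a fraction between 0 and 1. Whether those reads were counted by strand is not given in the sources used here. Genes on the opposite strand overlap exons of Rbfox2, Nova2, Celf3, Celf5 and Srrm4 in GENCODE vM21, and genes on the same strand overlap exons of Nova1 and Elavl3, so some reads may be shared.

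Deposited FPKM used a different normalizing mass in each library and was divided by the library sum of FPKM times transcript length. Transcripts took symbols from RefSeq identifiers, shared introns or their locus. Coverage times exon size gave reads, summed over 1 exon per cluster of overlapping exons and scaled by the median of ratios over 11229 genes. With 1 library per group, the errors shown are the deposited Cufflinks intervals for FPKM and counting intervals for reads. The latter cover counting error only, since PCR copies are not independent molecules. They may also be too narrow, because a read that crosses several exons may count in each. The neighbouring 51- and 27-base exons of Srrm4, for example, held the same 55, 47, 44 and 48 reads. Members, lists and limits were chosen with earlier results of these data known. All members were named, with their exons that differ by 10 points, the other regulators that were called or are closest relatives, and 3 genes most like a called member. Python 3.11.15, pandas 2.3.3, numpy 2.4.6 and scipy 1.17.1 were used.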

Additional observations from a re-analysis of the deposited data

How the results depend on the processing

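No paired analysis was possible because each group held 1 library, and for the same reason no library could be left out. The count of members called by exon reads with the Ptbp1 hairpin was 1 under each scaling, pseudocount and read minimum tried, by junction reads and without terminal exons (both added after seeing the data), and 2 at 1.5-fold. In the Ptbp2 knockdown it went from 0 to 1 at 1.5-fold. By FPKM the count went from 0 to 1 with a pseudocount of 0.1 (Ptbp1 hairpin) and, with 1 divisor for all deposited FPKM, from 0 to 1 in the double knockdown. Member exons called went from 0 to 4, 1 and 2 at 10 points in the Ptbp1, the Ptbp2 and the double knockdown, and to 1, 1 and 3 by the SpliceTrap ratio, where the exons called were the 16-base exon of Srrm4 and exons of Celf5 with few junction reads. By the left junction alone at 10 points, added after seeing the data, they were 3, 0 and 1. Scaling by library total moved the median log2 difference of all genes from 0.018 to 0.18 with the Ptbp1 hairpin and from 0.0091 to 0.13 with both, where the share of called genes that were higher went from 61.5% to 77.8%. In the same comparison that share was 88.5% with 1 divisor for FPKM against 53.0%, with median centring 42.7%. In the Ptbp1 knockdown the FPKM share was 44.0% with 1 divisor against 62.9%. That divisor moved the median FPKM difference of all genes to -0.13 there and to 0.44 with both hairpins. A pseudocount of 1 on exon reads left 171 genes higher and 23 lower with the Ptbp1 hairpin (686 and 32 as reported), 32 and 134 with the Ptbp2 hairpin (137 and 232) and 66 and 105 with both (268 and 168). Of 30 differences of members from control, 3 took the other sign with library total, 3 with FPKM, 3 with junction reads and 2 without terminal exons. The cause of these changes was not tested.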
